A study of Mus musculus with 6 samples.

Results

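Axon guidance ligands and receptors were read in RNA of mouse rhombomere 1, the front segment of the developing hindbrain. Embryos with a conditional deletion of both alleles of the transcription factor gene Gata2 were compared with controls in which 1 allele could be deleted. The genes were chosen by the symbol that the array's annotation gives their probes: the Eph receptors and ephrins, the semaphorins with their plexin and neuropilin receptors, the Slits and Robos, and the netrins with Dcc and the Unc5 receptors. In all, 65 of the 19054 genes named on the array carry such a symbol, through 168 of its 45276 probes. At least 1 probe of 44 of these genes was above background on 3 or more of the 6 arrays, and these 44 genes, measured by 94 probes, are the ones compared; the other 21 are described further below.

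Guidance cues steer the growing tips of axons by contact or at a distance. Ephrins are bound to the membrane and signal through Eph receptor tyrosine kinases on neighbouring cells, where contact mostly leads to repulsion or to sorting of cells at segment borders of the hindbrain. Semaphorins, secreted or membrane-bound, act through plexins, and most of the secreted class 3 members need a neuropilin to bind. Slits repel axons through Robo receptors at the ventral midline, while netrins attract axons through Dcc and repel them when an Unc5 receptor takes part. Many of these pairs also act on blood vessels and on migrating neurons.

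The tissue came from E12.5 embryos of the ICR (CD-1) strain. Controls were En1-cre carriers with the genotype Gata2 flox/+, although their samples are titled wildtype, and mutants were En1-cre carriers with Gata2 flox/flox, so both groups carried the recombinase and at least one floxed allele. The recombinase follows En1, which is expressed in midbrain and rhombomere 1, so cells outside that domain keep Gata2. A group consisted of 3 pools, each of 6 dissected pieces and each read on its own Illumina Mouse WG-6 array, where the brightness of a probe stands for the amount of RNA. The control arrays are 5R, 6R and 7R, and the mutant arrays are 1R, 2R and 3R; where 3 values are listed for a group they follow this order. Every value below is a log2 normalized intensity of one probe or a difference of such values, mutant minus control, and intensities of different probes are not compared.

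On each array 42.8% to 45.1% of the probes were above background, and correlations between arrays were 0.988 to 0.993 within groups and 0.988 to 0.991 between them, across probes. The Gata2 probe read 10.71, 10.41 and 10.48 in controls and 10.79, 10.79 and 11.09 in mutants, so it was not lower in the mutants (0.36, limma adjusted p = 0.412); its place relative to the deleted part is not stated, so it checks nothing about the labels. En1 and En2, homeobox genes of midbrain and rhombomere 1, were detected, with differences of -0.25 and -0.18, as was the midbrain gene Otx2 at 0.01. The rhombomere 1 gene Gbx2 differed by 0.67 ± 0.36 (SE) and varied widely within groups. It read 6.40, 7.91 and 6.95 in controls and 6.90, 8.06 and 8.31 in mutants. Fgf8 had the smallest p of this list, 0.41 ± 0.16 (SE) with overlap (limma adjusted p = 0.510). The dim Hoxa2 differed by 0.34 ± 0.30 with overlap, and the dim Hoxb2 by -0.20 ± 0.15 without overlap. Hoxa2 read 4.85, 5.50 and 4.84 in controls and 4.56, 5.70 and 5.95 in mutants. As with Gbx2, its highest control array was 6R and its lowest mutant array 1R. Whether the dissected pieces differed between pools was not tested. None of the 7 measured genes of this segment and its borders passed an adjusted p under 0.05 (limma). Pax2, Pax5 and Wnt1, genes of the midbrain-hindbrain border, were below the detection filter. Of 9 measured serotonergic neuron genes 6 fell (the limma fit over all genes, adjusted p under 0.05), and their summed linear intensity was 3335 to 4280 in controls and 831 to 942 in mutants. In whole tissue, fewer cells of a type and less RNA per cell cannot be told apart.

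No guidance gene differed between mutants and controls at an adjusted p under 0.05, a threshold that 18 of all 10524 genes tested, 0.171%, passed (limma, Benjamini-Hochberg). At an unadjusted p under 0.05 there were 7 of 44, 15.9%, against 8.83% of all genes tested. Of the 7, 6 were lower by value in the mutants (13.6% of the guidance genes, against 4.48% of all genes) and 1 was higher (2.27%, against 4.34%). The count of 7 was not steady: it was 3 without control array 6R or mutant array 2R and 4 without control array 5R, where the share of all genes was lower too, at 6.20%, 6.35% and 5.82%. With median scaling it was 4, while the share of all genes was 10.8%. In 6 of the 44 the mutant and control arrays did not overlap, which is 13.6% beside 14.1% of all genes; all 6 had the mutants below the controls, a pattern that 6.45% of all genes showed. The members were chosen by name with earlier results of these data known, and these shares are a description.

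The sizes of the differences were small and close to those of other genes. The median difference over the 44 genes was -0.02, beside 0.01 over all genes tested, and the median size regardless of sign was 0.12 beside 0.11. The 44 differences ran from -0.38 to 0.32, with 26 negative and 18 positive. Those of all genes tested ran from -4.86 to 1.34, with 4914 negative and 5610 positive. The 95% interval of each of the 44 lay within a 2-fold difference in either direction, and that of 38 within 1.5-fold; among all genes 99.3% and 86.9% had such intervals. The widest reach of any guidance gene's interval was 1.62-fold. These limits hold for the background-corrected values of the probe used, and they do not show that expression was the same.

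**Figure D1:**
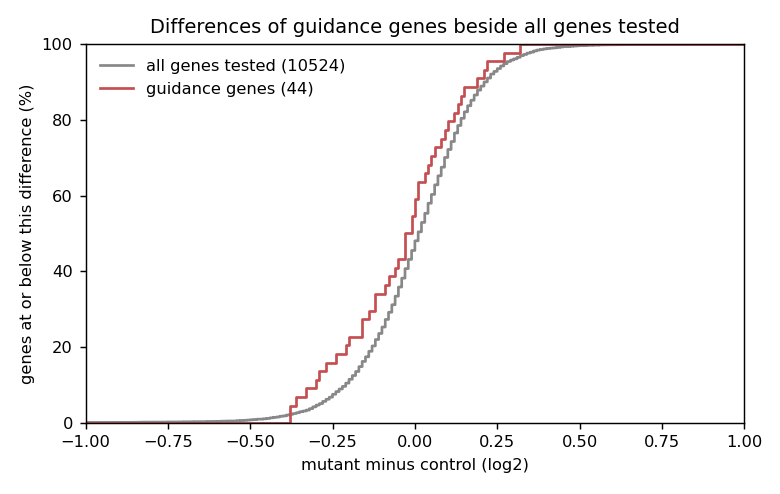
The share of genes (y axis, percent) whose difference, mutant minus control in log2 (x axis), lies at or below a value, for the 44 measured guidance genes and for all 10524 genes tested. Both curves cross the middle close to 0, with medians of -0.02 and 0.01, and the guidance genes reach from -0.38 to 0.32; differences of other genes beyond -1 or 1 are outside the plot.

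By family, the median difference was -0.08 for 8 measured Eph receptors, -0.09 for 5 ephrins, 0.00 for 14 semaphorins, -0.17 for 2 neuropilins, -0.01 for 5 plexins, 0.17 for 2 Slits, 0.00 for 3 Robos, 0.09 for 2 netrins and 0.09 for Dcc with 2 Unc5 receptors. The ligand families together had a median of 0.01 over 23 genes, 11 negative and 12 positive. The receptor families had a median of -0.03 over 21 genes, 15 negative and 6 positive. Families were not tested as sets. The neuropilin, Slit and netrin medians, over 2 genes each, turn with the choice of probe, as given below.

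**Figure D2:**
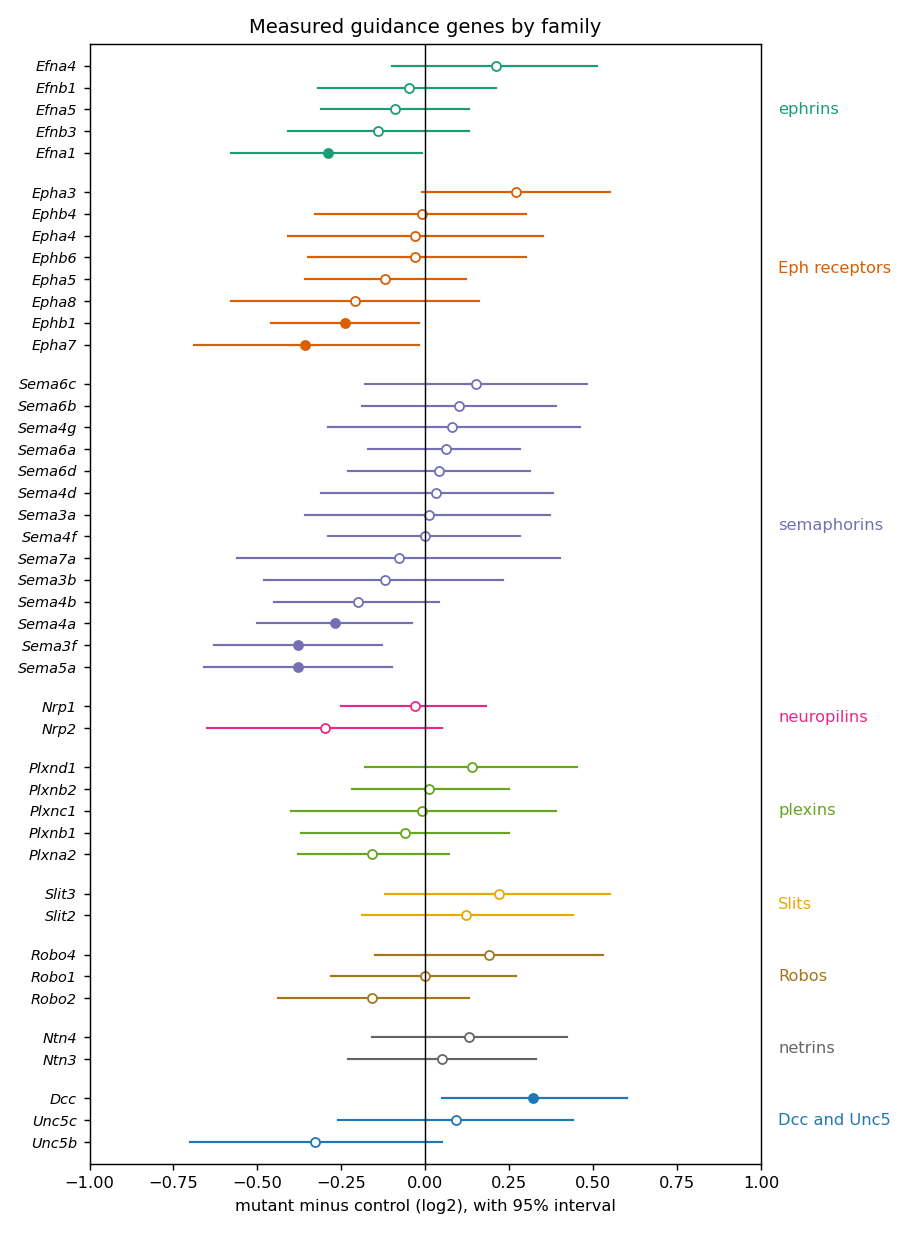
Difference of each of the 44 measured guidance genes, mutant minus control in log2 (x axis), with its 95% interval from the limma fit, grouped by family; filled points have an unadjusted p under 0.05. The 7 filled points are Efna1, Ephb1, Epha7, Sema4a, Sema3f, Sema5a and Dcc, and all intervals stay between -0.70 and 0.60.

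The promoter windows of the measured genes, from 250 bases before to 50 bases after an annotated gene start (RefSeq, GRCm38.p6), were searched for the letters that GATA factors are known to bind on both strands, which are AGATAA with its variant AGATAG, and likewise TGATAA with its variant TGATAG; these motifs do not contain one another. Windows were given for 39 of the 44 genes, and 8 of their 53 windows, 15.1%, held a match, beside 18.6% of the windows of all genes tested and 29.8% of all windows in the table. Of the 7 genes at an unadjusted p under 0.05, 5 had windows, all but Sema3f and Dcc, and 0 of their 10 windows held a match. The windows of Epha7 and some of Sema4a overlap, so the 10 are not separate stretches. A match is a description of letters and no evidence of binding, and its absence says nothing about sites elsewhere. The windows of an Eph receptor and a semaphorin among the 7 are shown beside those of a receptor of each of 2 families that do hold a match (capitals), all 5′ to 3′ on the gene's strand; in both the letters are those of the opposite strand of AGATAA, and they begin at position -8 from the gene start in Epha3 and at position -186 in Robo2, whose other 2 windows have none.
Ephb1 (chr9:102354644-102354943, minus strand): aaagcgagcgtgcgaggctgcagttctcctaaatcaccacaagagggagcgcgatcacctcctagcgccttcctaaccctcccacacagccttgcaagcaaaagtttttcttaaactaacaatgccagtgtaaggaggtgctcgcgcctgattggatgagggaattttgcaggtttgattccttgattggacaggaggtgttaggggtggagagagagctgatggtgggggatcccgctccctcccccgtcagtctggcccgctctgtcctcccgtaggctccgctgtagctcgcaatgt
Sema5a (chr15:32244563-32244862, plus strand): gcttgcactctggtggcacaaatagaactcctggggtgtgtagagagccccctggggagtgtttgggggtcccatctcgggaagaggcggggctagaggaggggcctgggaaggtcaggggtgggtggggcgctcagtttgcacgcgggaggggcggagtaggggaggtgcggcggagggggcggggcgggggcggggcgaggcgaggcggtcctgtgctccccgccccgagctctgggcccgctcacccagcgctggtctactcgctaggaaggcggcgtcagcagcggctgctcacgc
Epha3 (chr16:63864126-63864425, minus strand): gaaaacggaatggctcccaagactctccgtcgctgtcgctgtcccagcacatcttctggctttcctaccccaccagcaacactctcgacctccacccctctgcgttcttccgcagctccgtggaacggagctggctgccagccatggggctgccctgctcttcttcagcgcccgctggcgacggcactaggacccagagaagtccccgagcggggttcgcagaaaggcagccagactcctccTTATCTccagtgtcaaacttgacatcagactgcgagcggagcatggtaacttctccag
Robo2 (chr16:75092721-75093020, minus strand): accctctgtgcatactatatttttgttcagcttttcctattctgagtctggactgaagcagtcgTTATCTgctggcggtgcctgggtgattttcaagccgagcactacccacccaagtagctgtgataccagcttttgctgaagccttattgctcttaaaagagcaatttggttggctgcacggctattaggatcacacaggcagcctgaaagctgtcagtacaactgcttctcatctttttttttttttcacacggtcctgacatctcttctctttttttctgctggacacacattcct

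Among the ephrins, Efna1, a lipid-anchored ligand of EphA receptors, had the most negative difference. Its only probe read 6.00, 6.03 and 6.05 in controls and 5.76, 5.76 and 5.67 in mutants. The arrays within each group were close together and the groups did not overlap, with a difference of -0.29 ± 0.13 (SE) and a limma adjusted p of 0.559. Without background correction the difference was -0.16. Efna4, another lipid-anchored ephrin, had the most positive difference, 0.21 ± 0.14, with overlapping groups, and its second probe gave 0.28. The membrane-spanning ephrins Efnb1 and Efnb3 differed by -0.05 and -0.14, and Efna5, a lipid-anchored ligand, by -0.09.

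Of the Eph receptors 7 of 8 had negative differences, but those of Ephb4 (-0.01), Epha4 (-0.03) and Ephb6 (-0.03) were far smaller than their standard errors. Ephb1, known for sending a subset of retinal axons to the same side of the brain, read 11.73, 11.86 and 11.59 in controls and 11.54, 11.38 and 11.55 in mutants. The groups were separated by a narrow gap between control array 7R and mutant array 3R, and the difference was -0.24 ± 0.10 (limma adjusted p = 0.538). Its 3 dimmer detected probes gave -0.13, -0.02 and 0.14, and with the mean of its detected probes the difference was -0.06.

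Epha7, an EphA receptor that is also made in forms lacking the kinase, read 7.18, 6.84 and 7.08 in controls and 6.76, 6.89 and 6.39 in mutants, with overlap and a difference of -0.36 ± 0.16 (limma adjusted p = 0.550). Another Epha7 probe of about the same brightness read 7.21, 7.01 and 7.16 in controls and 6.45, 6.65 and 6.50 in mutants, without overlap. It gave -0.59, with a 95% interval of -0.87 to -0.31 and an unadjusted p of 0.000518, the smallest of the 94 detected guidance probes. Its remaining 2 probes each gave -0.13, so all 4 were negative and their sizes differed. Epha3, an EphA receptor of motor and other axons, was the one Eph receptor with a positive difference, 0.27 ± 0.13, from 9.20, 9.19 and 9.36 to 9.24, 9.73 and 9.58. Its 3 detected probes gave 0.18 to 0.31, and the groups overlapped in each.

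The semaphorins, 14 of the 44 measured guidance genes, held 3 of the 7 at an unadjusted p under 0.05 (limma). Of all genes tested 8.83% were at that threshold. The smallest p of all guidance genes was that of Sema3f, a secreted repellent that acts through Nrp2. Sema3f read 10.44, 10.59 and 10.40 in controls and 10.26, 9.88 and 10.15 in mutants. All mutant arrays lay below all control arrays, 2R furthest, and the difference was -0.38 ± 0.11 (95% interval -0.63 to -0.13, limma adjusted p = 0.375). A second probe read 9.64, 9.76 and 9.61 in controls and 9.57, 8.99 and 9.28 in mutants, again without overlap, and gave -0.39. By unadjusted p Sema3f ranked 166 among the 10524 genes tested.

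Sema5a, a membrane-spanning semaphorin with thrombospondin repeats that can attract or repel, read 7.77, 7.68 and 7.66 in controls and 7.42, 7.44 and 7.11 in mutants. The groups did not overlap, and the difference was -0.38 ± 0.13 (limma adjusted p = 0.418). Of its other detected probes one gave -0.53, also without overlap, and a dim one gave -0.05. Sema4a, a membrane-spanning semaphorin best known from immune cells and the retina, read 10.31, 10.54 and 10.25 in controls, and the mutants had a mean of 10.10 ± 0.09 (SD), with 10.18 on 1R as the highest. All mutant arrays lay below the lowest control, 7R, and its only probe differed by -0.27 ± 0.11 (limma adjusted p = 0.513).

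The remaining 11 semaphorins lay between -0.20 (Sema4b) and 0.15 (Sema6c). All 4 measured class 6 semaphorins, membrane-spanning ligands of plexin-A receptors, had small positive differences, from 0.04 to 0.15, and each overlapped between the groups. For Sema6a, Sema6c and Sema6d another detected probe of the same gene gave a negative value. Sema3a, the secreted repellent that binds Nrp1, differed by 0.01 ± 0.17.

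**Figure D3:**
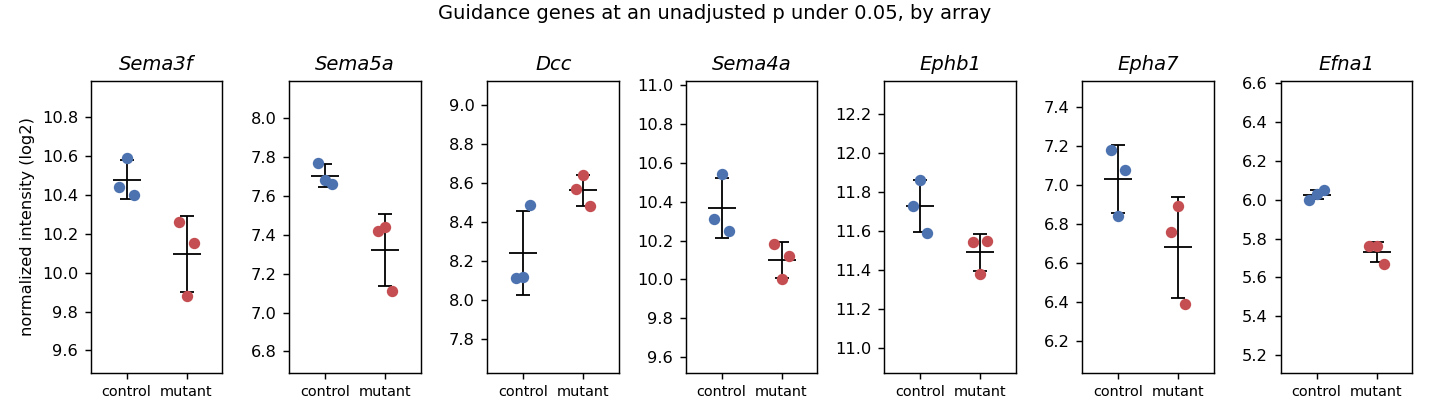
Log2 normalized intensity on each array (points) of the 7 guidance genes at an unadjusted p under 0.05, with the mean and SD of the 3 control and 3 mutant pools; every panel spans the same range of log2 units around its own values. Mutant points lie below all control points for Sema3f, Sema5a, Sema4a, Ephb1 and Efna1, and overlap with them for Dcc and Epha7.

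The receptors of the semaphorins showed no difference of that size on which their probes agreed. Nrp2, the neuropilin that binds Sema3f, read 5.29, 5.76 and 5.37 in controls and 5.10, 5.26 and 5.15 in mutants, a difference of -0.30 ± 0.16 (limma adjusted p = 0.627), without overlap. A second Nrp2 probe, as close to background, gave 0.32, so the direction rests on the probe. Nrp1 read 9.12, 9.12 and 9.17 in controls and 9.09, 9.08 and 9.14 in mutants, a difference of -0.03 ± 0.10. Its other 2 detected probes gave -0.05 and 0.02, and with median scaling Nrp1 was 0.06, where the median of all genes was 0.08. Plxna2, a plexin-A that signals for class 3 and class 6 semaphorins, had the most negative plexin difference, -0.16 ± 0.10, and Plxnd1, known from developing vessels, the most positive, 0.14 ± 0.14, where its second probe gave -0.06.

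Slits and Robos differed little by the probes used. Slit2, a secreted midline repellent, read 11.22, 10.76 and 11.06 in controls and 10.85, 11.40 and 11.15 in mutants, with overlap and a difference of 0.12 ± 0.15, and its 6 detected probes ran from -0.44 to 0.29. Slit2 turned to -0.01 without control array 6R or mutant array 2R. Slit3 differed by 0.22 ± 0.15, and its 3 probes were all positive, from 0.10 to 0.22. Robo1 differed by 0.00 ± 0.13. Robo2, which with Robo1 receives Slit signals in commissural and longitudinal axons, read 7.21, 7.17 and 7.12 in controls and 6.84, 6.98 and 7.20 in mutants, a difference of -0.16 ± 0.13 (limma adjusted p = 0.780). All 7 detected Robo2 probes, read on the same arrays, were negative, from -0.41 to -0.05. Of these 7, 2 had an unadjusted p under 0.05 (limma), beside 8.84% of all detected probes. The Robo2 probe at -0.27 was above background on 3 control arrays and 1 mutant array. Robo4, the Robo of endothelial cells, differed by 0.19 ± 0.16, and its second probe gave -0.11. The 9 measured endothelial markers had a median of 0.01 and a summed linear intensity of 1419 to 1578 in controls and 1276 to 1547 in mutants.

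In the netrin system the one receptor with a positive difference among the 7 was Dcc, which draws commissural axons toward the netrin of the floor plate. Dcc read 8.11, 8.12 and 8.49 in controls and 8.57, 8.64 and 8.48 in mutants. Control array 7R stood with the mutants while 5R and 6R were lower, so the groups overlapped, and the difference was 0.32 ± 0.13 (limma adjusted p = 0.510). A second Dcc probe of similar brightness gave 0.06, with an interval of -0.24 to 0.35. Unc5b, a repulsive netrin receptor also known from vessels, had the opposite sign, with 6.35, 6.14 and 5.90 in controls, 5.84, 5.51 and 6.06 in mutants and a difference of -0.33 ± 0.17. Unc5c, a repulsive netrin receptor too, differed by 0.09 ± 0.16.

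Of the 3 netrins with a named probe, Ntn3 and Ntn4 were measured and Ntn5 was below the detection filter. No probe carried the symbol Ntn1 alone, so Ntn1 could not be read. Ntn3, a secreted netrin, differed by 0.05 ± 0.13. Ntn4, a netrin of basement membranes, differed by 0.13 ± 0.13 by its brighter probe, which read 6.38, 6.17 and 6.20 in controls and 6.47, 6.30 and 6.36 in mutants. Its dimmer probe read 5.94, 5.75 and 6.20 in controls and 5.56, 5.31 and 4.90 in mutants. These groups did not overlap, and the difference was -0.70 (95% interval -1.10 to -0.30, unadjusted p of 0.00229), so the probes named Ntn4 disagree in direction.

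Disagreement in sign was common, but for no other guidance gene did the detected probes lie as far apart as for Ntn4. Of 27 guidance genes with several detected probes, 13 had a single sign in all of them. Some of the others had small values throughout, such as Nrp1 (-0.05 to 0.02) and Robo1 (0.00 to 0.09). The same count was not made over all genes. Counted by probe, 13 of 94 detected guidance probes had an unadjusted p under 0.05 (limma), beside 8.84% of all 19936 detected probes. Of the 94, 12 were at that threshold and lower in the mutants, beside 4.86% of the 19936. At an adjusted p under 0.05 over probes there were 0 guidance probes, where 29 of all probes, 0.145%, passed (limma, Benjamini-Hochberg). Probes of one gene on the same arrays are not independent.

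**Figure D4:**
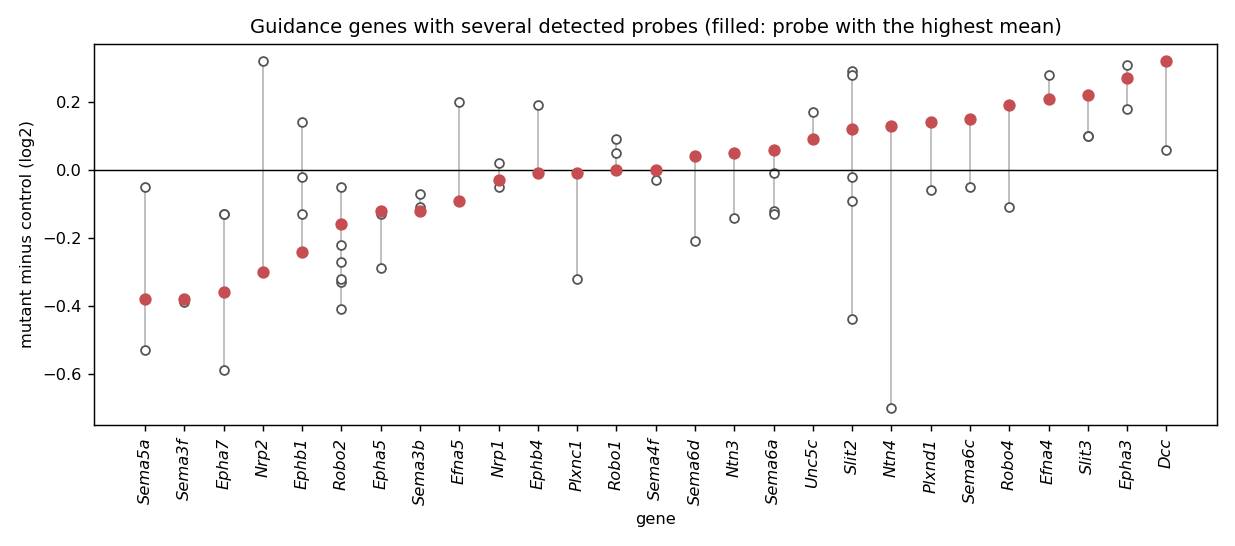
Difference, mutant minus control in log2 (y axis), of every detected probe of the 27 guidance genes with several detected probes (x axis); the filled point is the probe with the highest mean, which stands for the gene, and open points are its other probes. Robo2, Epha7 and Sema3f have all probes below 0, Epha3, Efna4 and Slit3 all above 0, and the probes of Ntn4, Nrp2 and Slit2 lie on both sides.

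The 21 guidance genes without a probe above background on 3 arrays were Epha1, Epha2, Epha6, Epha10, Ephb3, Efna2, Efna3, Efnb2, Sema3c, Sema3d, Sema3e, Sema3g, Sema4c, Plxna1, Plxna3, Plxna4, Plxnb3, Slit1, Ntn5, Unc5a and Unc5d. For 17 of the 21 no probe was above background on any array, so no level was measured in either group. Ephb2, Sema5b, Robo3 and Ntn1 had no probe named by their symbol alone and are not among the 65 guidance genes. In a fit of all probes the differences of the 21 ran from -0.41 to 0.11. Among them 1, Sema4c, a membrane-spanning semaphorin, had an unadjusted p under 0.05 (limma). Sema4c was above background on 1 control array alone, where it read 5.50 beside 4.57 and 4.70 on the other controls. Plxna1, 1.11 Mb from Gata2 on chromosome 6, is among the unmeasured genes, while Sema4f, 5.25 Mb from Gata2, read 7.13, 7.31 and 7.13 in controls and 7.05, 7.16 and 7.36 in mutants, a difference of 0.00 ± 0.13.

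Wider parts of the pathway were read from 2 further lists. Of 32 other cues and receptors 27 were measured, with a median of 0.07, and 0 passed an adjusted p under 0.05 while 1 was lower and 3 were higher at an unadjusted p under 0.05 (limma), beside 4.48% lower and 4.34% higher among all genes tested. Flrt2, a membrane protein that binds Unc5 receptors, read 7.69, 7.68 and 7.59 in controls and 6.96, 7.08 and 7.15 in mutants, without overlap. Its difference of -0.59 ± 0.12 (limma adjusted p = 0.106) was larger in size than that of any gene among the 44. The chemokine Cxcl12 differed by 0.40 ± 0.14 and its scavenging receptor Ackr3 by 0.48 ± 0.14, also without overlap (limma adjusted p = 0.418 and 0.372). Of 50 cytoplasmic effectors 34 were measured, with a median of -0.05, and 0 passed an adjusted p under 0.05 (limma), with 1 lower and 1 higher at an unadjusted p under 0.05, beside 8.83% of all genes in either direction. The kinase Gsk3b, which acts below semaphorin receptors among many others, had the smallest p there, -0.48 ± 0.10 (limma adjusted p = 0.126).

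Markers of the cells in the dissected pieces had the following values beside these, and their part in the guidance results was not tested. Of 10 measured pan-neuronal genes 8 were negative (median -0.08), with a summed linear intensity of 27700 to 30626 in controls and 25996 to 27709 in mutants, ranges that meet only at their edge. Among them Syt1, a calcium sensor of synaptic vesicles, read 11.65, 11.56 and 11.31 in controls and 10.82, 10.77 and 11.07 in mutants, without overlap, a difference of -0.62 ± 0.12 (limma adjusted p = 0.0614) that is larger in size than that of any measured guidance gene. Neural progenitor genes had a median of 0.00 over 9 measured genes, 5 negative and 4 positive, with sums of 20892 to 24182 and 21783 to 25985. Hes5 had the smallest p among them, 0.37 ± 0.10 without overlap (limma adjusted p = 0.331). All 5 measured blood genes were positive (median 0.27), with sums of 49792 to 56224 in controls and 52898 to 61065 in mutants, among them Hbb-bh1 at 0.53. For 5 measured genes of mural cells and meningeal mesenchyme the median was -0.06, with sums of 388 to 477 and 362 to 476. For 5 microglial genes, 4 negative and 1 positive, it was -0.12, with sums of 263 to 294 and 230 to 265. The dim Csf1r had the smallest p of the microglial genes, -0.39 ± 0.15 without overlap (limma adjusted p = 0.498). Col1a1, Col1a2, Col3a1, Lum and Pdgfrb of the mesenchyme list, Kdr of the endothelial list and Ptprc of the microglial list were below the detection filter.

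Under 16 alternative settings the 7 genes kept their signs, but only Sema3f stayed at an unadjusted p under 0.05 in all 16. Sema3f ranged from -0.46 to -0.27, with a limma adjusted p of 0.128 to 0.785. Sema5a was at an unadjusted p under 0.05 in 15, Epha7 and Sema4a in 11 each, Dcc in 10, Ephb1 in 9 and Efna1 in 7. Without mutant array 1R or 3R another Dcc probe became the brightest, and Dcc was then 0.04 or 0.17. Likewise, without mutant array 1R or 2R Epha7 was read by another of its probes, at -0.55 or -0.64.

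**Figure D5:**
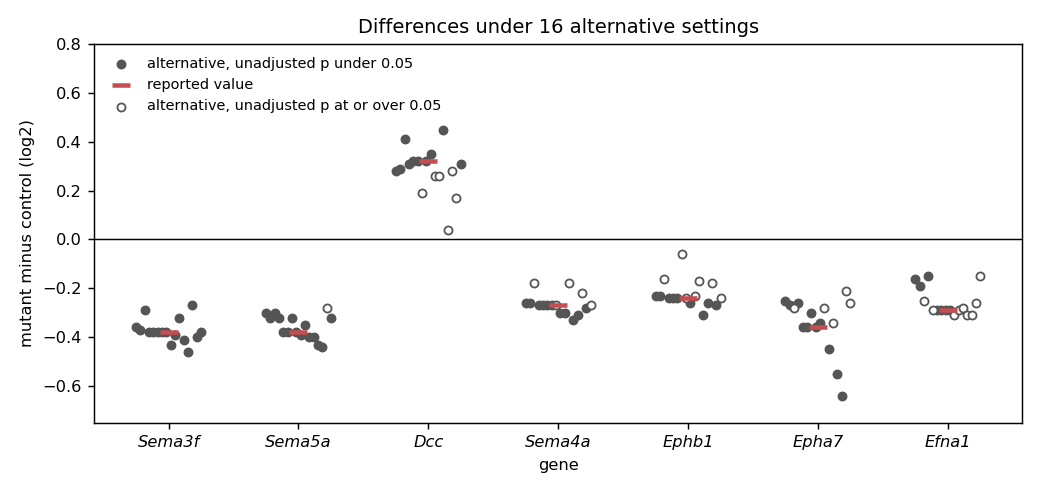
Difference, mutant minus control in log2 (y axis), of the 7 guidance genes at an unadjusted p under 0.05 (x axis) in the reported fit (bars) and under 16 alternative settings (points, filled where the unadjusted p is under 0.05). No sign turns; Sema3f has 16 filled points, Sema5a 15 and Efna1 7.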

How the data were processed

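RNA of rhombomere 1 from 6 pools was measured on Illumina Mouse WG-6 arrays. The authors deposited linear probe intensity, named as not normalized, and per the file headers a detection p-value follows each intensity column. A second deposited table holds intensity with the same median, 86.4, in every column. The submitters' processing notes name GenomeStudio 1.0; no other step is stated. Columns name the genotype and an array, not a replicate number, so each served as a replicate of its group; the submitters call the pools biological replicates.

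Background correction, quantile normalization and log2 used neqc of limma 3.58.1 (R 4.3.3, offset 16). A probe was kept when its detection p-value was below 0.05 on 3 or more arrays, which left 19936 of 45276. lmFit and eBayes followed, with the prior variance allowed to depend on intensity (8.98 prior degrees of freedom). Each gene took its probe with the highest mean, and Benjamini-Hochberg adjustment ran over 10524 genes with a threshold of 0.05. The fit was tested on simulated data with changes larger in size than the difference of any measured guidance gene. That test does not show whether differences as small as theirs could be called. Of all probes 34881 had 1 symbol, 18 had several, among them 1 with a guidance symbol that was left unnamed, and 10377 had none; all 65 guidance symbols were found in the GRCm38.p6 gene table. The number of arrays limits the precision.

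Members, lists and tests were chosen with earlier results of these data known. The 21 genes described by rule were those at an unadjusted p under 0.05 and the most positive and most negative of each of 9 families; up to 3 genes of each wider list were named by smallest p; single probes and other genes were chosen after their values were seen. Alternatives changed 1 choice at a time, except the replicate block, which also changed the table: the background step (none, or offset 50), scaling by the median, the deposited normalized intensity, the detection filter (absent or stricter), averaging of probes, the variance trend, array weights, each array left out, a threshold of 0.1, counting by probe, and a replicate block on the deposited normalized intensity.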

Additional observations from a re-analysis of the deposited data

How the results depend on the processing

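No guidance gene passed an adjusted p under 0.05 (limma) in any of the 16 alternative fits, nor at an adjusted p under 0.1 or counted by probe. The count at an unadjusted p under 0.05, 7 with 6 lower, was 4 with 2 lower under median scaling and 3 with 2 lower under the replicate block on the authors' normalized table, which without the block gave 7 with 6 lower; leaving out 1 array gave 3 to 8, with 3 to 6 lower. All genes called numbered 18, and 12 to 52 leaving out 1 array, 52 without mutant array 1R. The neuropilin median was -0.03 with the stricter filter, where Nrp2 was not measured, -0.01 with the mean of a gene's probes, and -0.21 to 0.16 leaving out 1 array; the netrin median was -0.17 with the mean of probes. Signs turned for Nrp1 (0.06 under median scaling, which moved the median of all genes from 0.01 to 0.08), Nrp2 (0.01 with the mean of probes), Ntn3 (-0.04 with the mean of probes) and Ntn4 (-0.29 with the mean of probes). Leaving out 1 array, Nrp2 ran from -0.39 to 0.33, Ntn3 from -0.02 to 0.18 and Slit2 from -0.01 to 0.27; Nrp2 was positive where the loss of control array 6R or 7R made its other probe the brighter one. The other 16 of the 21 genes described by rule, and Gata2, kept their signs in all 16 fits; other genes named in the text were not followed across settings. The replicate block changed no call of a guidance gene. Only the authors' table has columns that carry the replicate number. There the deviations of same-numbered samples from their group means correlated over genes at -0.04, -0.11 and -0.30. Deviations from the mean of so few pools cancel within a group, so these values cannot show what same-numbered samples share. The titles do not say what the number stands for. Efna1 and Nrp2, both read by dim probes, differed by -0.16 and -0.14 without background correction, beside -0.29 and -0.30 in the reported fit. Probes close to background, such as those of Nrp2, limit what can be read.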
